A study of Arabidopsis thaliana with 2 samples.

Results

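LHCB4.1, LHCB4.2, PSAE-1 and RCA are nuclear genes whose products work in the chloroplast, 4 of the 13355 genes that carried a named probe set. They were taken by name, each from the single probe set that names it and no other gene, and the rule uses no measured value, although earlier results of these data were known when it was set. Their signals were read on 2 Affymetrix arrays of Arabidopsis thaliana, genotype Columbia-0, from plants 5 weeks old. One array carried trichome sap RNA, from the hairs of the leaf surface, each of which is a single cell. The other carried RNA from pavement cell sap, pavement cells being the ground cells of the leaf epidermis. The saps were drawn with microcapillaries, and the RNA was amplified in 1 round before labelling. Each group is 1 array, so no value below has a replicate error and no test between the cell types was possible. The sources used here do not give the number of plants or cells pooled into a sample, nor the hour of sampling.

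In a chloroplast, light is caught by antenna proteins and passed to photosystems II and I, which drive electrons along the thylakoid membrane, and the energy is spent in the Calvin cycle, where rubisco fixes carbon dioxide. LHCB4.1 and LHCB4.2 encode forms of CP29, an antenna protein that stands between the outer antenna and the core of photosystem II. PSAE-1 encodes a subunit on the stromal face of photosystem I, near the site where ferredoxin is reduced. RCA encodes rubisco activase, the ATP-driven enzyme that frees rubisco from bound sugar phosphates. In leaves these genes are expressed most in the mesophyll, the green tissue below the epidermis, and are widely used as its markers. The plastids of pavement cells are smaller and paler than those of the mesophyll.

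All 4 genes read lower in trichome sap than in pavement sap, and all 4 gave a signal above background in both. Signals are given as log2 values as the authors deposited them. Background was set by a ceiling of 2.58, the highest of the readings of 27 probe sets for Bacillus transcripts. The CP29 gene LHCB4.1 read 3.67 in trichome against 9.42 in pavement, which is a difference of -5.75 (53.8-fold lower in trichome). Its relative LHCB4.2 read 3.70 in trichome against 9.21 in pavement, which is a difference of -5.52 (45.7-fold). The antenna genes thus stood wide apart between the saps, and nearly by the same amount. The photosystem I gene PSAE-1 read 3.95 in trichome against 8.85 in pavement, which is a difference of -4.90 (29.9-fold). RCA read 3.97 and 8.88, which is also a difference of -4.90 (29.9-fold). The differences of the 4 genes lay within 0.85 of each other on the log2 scale. The spread of the difference between probe sets of the same gene is a partial measure of technical error here. Its pooled SD was 0.95 over 36 genes with a probe set above background and 0.52 over all 147 genes with several probe sets. A range over 4 genes and an SD are unlike measures, so the range cannot be ranked against these values. The spread between probe sets leaves out that between plants, samplings and amplifications. In these bulk samples, fewer contributing cells and less RNA per cell cannot be told apart.

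The trichome signals of the 4 genes were low but stood clear of the background ceiling. LHCB4.1 was 2.13-fold and LHCB4.2 2.17-fold above the ceiling on the trichome array. PSAE-1 was 2.58-fold and RCA 2.62-fold above it. On the trichome array 13.9% of all 22810 probe sets read above the ceiling, and on the pavement array 18.5%. In pavement the same genes were between 76.9-fold (PSAE-1) and 115-fold (LHCB4.1) above the ceiling. Each of the 4 probe sets is of the type designed for a single transcript. Whether probes for LHCB4.1 and LHCB4.2 bind each other's transcripts was not examined, since probe sequences were not used here, and signals of different probe sets are not comparable as amounts of transcript.

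**Figure D1:**
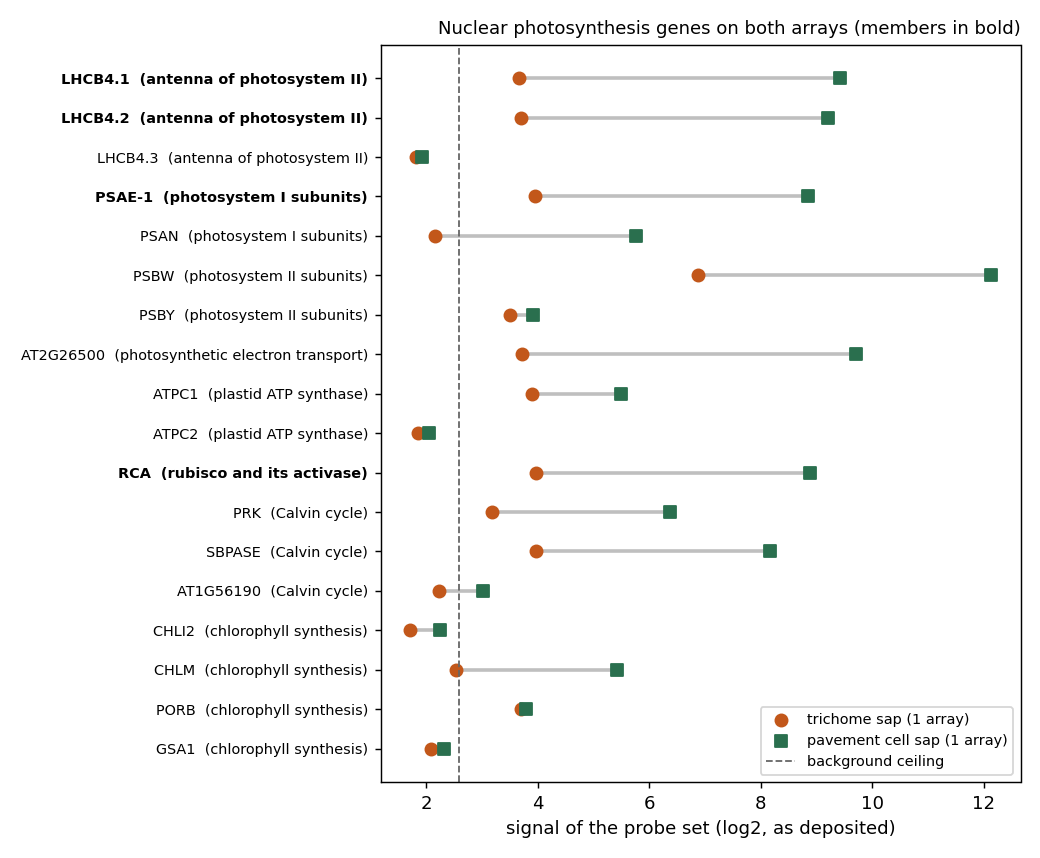
Deposited log2 signal (horizontal axis) of the 18 measured nuclear photosynthesis genes, with trichome sap as circles and pavement cell sap as squares, 1 array each, and the background ceiling of 2.58 as a dashed line. LHCB4.1, LHCB4.2, PSAE-1 and RCA (bold) have trichome signals from 3.67 to 3.97 and pavement signals from 8.85 to 9.42, whereas PSBY and PORB have nearly equal signals on both arrays.

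A count of differences has to be read against the whole array, on which many genes were lower in trichome. A filter kept the 8167 named genes that reached 2.05, the median reading, on at least 1 array. Of these, 679 (8.31%) were at least 2-fold lower in trichome and 97 (1.19%) at least 2-fold higher. All 4 photosynthesis genes were among the 679. They were also among the 303 genes (3.71%) that were at least 4-fold lower. Over all 13355 named genes the median difference was 0.02, and over the 4 genes it was -5.21. Of all named genes, 20 had a more negative difference than LHCB4.1, 25 than LHCB4.2, 45 than RCA and 46 than PSAE-1.

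The difference between the arrays grew with signal level up to a mean level of about 6 and little beyond, and the 4 genes lie where it was wide for most genes. Their mean levels over both arrays were 6.40 (PSAE-1), 6.42 (RCA), 6.46 (LHCB4.2) and 6.55 (LHCB4.1). The 31 named genes with a mean level from 6 to 7, which include these 4, had a median difference of -4.59, with quartiles of -5.63 and -3.46. LHCB4.2, PSAE-1 and RCA lay between those quartiles, and LHCB4.1 lay just below the lower one. Genes were also taken by their pavement signal alone. Of the named genes, 58 read in pavement at or above PSAE-1, the dimmest of the 4 there, and all 58 were at least 2-fold lower in trichome, with differences from -8.36 to -1.55. Taking genes by a high pavement signal in itself favours a lower trichome reading, so these ranks are a description. Among these 58 genes, 14 had a more negative difference than LHCB4.1, 17 than LHCB4.2, 27 than RCA and 28 than PSAE-1. Within this set, whose cut is the pavement signal of PSAE-1 itself, RCA and PSAE-1 were near the middle and the CP29 genes nearer to the lower end. The choice of the set shapes these places, so nothing is concluded from them.

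**Figure D2:**
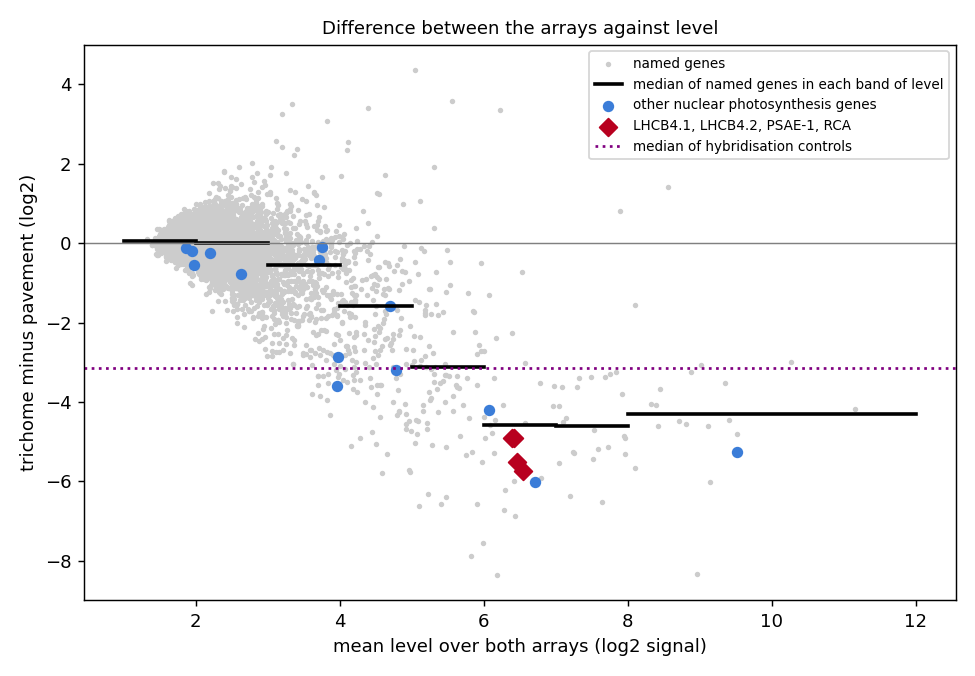
Trichome minus pavement difference (log2, vertical axis) against mean level over both arrays (log2 signal, horizontal axis) for the 13355 named genes, with black lines for the median of each band of level and a dotted line for the hybridisation control median of -3.15. The 4 genes (diamonds) lie at differences from -5.75 to -4.90, beside a band median of -4.59, and PSBY and PORB lie above the median of their band.

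Genes with the trichome signal of the 4 had a wide span of pavement signals. Of the named genes, 114 read in trichome within the span of the 4 genes, 3.67 to 3.97. In pavement these 114 genes spanned 1.77 to 9.74 around a median of 4.34. The 2-fold mark was passed by 44 of them, lower in trichome, against 8.31% of the named genes that passed the filter. These 114 genes all read above the background ceiling in trichome, whereas 10731 of all 13355 named genes were at background on both arrays. The count and the share are therefore over unlike sets. In pavement 7 of the 114, the 4 genes included, read at or above PSAE-1. The set held 4 further nuclear photosynthesis genes: AT2G26500, SBPASE, ATPC1 and PORB. These share the trichome span with the 4 genes and differ widely from each other in pavement, at 9.72, 8.17, 5.49 and 3.80.

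The scale between the arrays is not settled by the deposited values, so the differences were also computed on other scales. The 18 probe sets for hybridisation controls target bacterial and phage transcripts spiked into labelled samples by the array's standard procedure. All 18 read lower on the trichome array, with differences from -3.54 to -1.935 and a median of -3.15. Relative to that median the differences were -2.60 for LHCB4.1, -2.37 for LHCB4.2, and -1.75 for both PSAE-1 and RCA, where 1.05% of the genes that passed the filter were at least 2-fold lower in trichome. After quantile normalization of the arrays together they were -2.97, -2.72, -1.93 and -1.90, in the order LHCB4.1, LHCB4.2, PSAE-1 and RCA (4.24% of genes 2-fold lower). After a lowess correction for mean level they were -1.83, -1.69, -1.13 and -1.11 (4.08% of genes). Centred on the named genes of the same band of level they were -1.16, -0.93, -0.31 and -0.32 (4.9% of genes), so that only LHCB4.1 of the 4 stayed 2-fold lower. None of the 4 genes turned to a higher value in trichome under any of these scalings. Centred on their band, LHCB4.2, PSAE-1 and RCA had differences smaller in size than the SD of 0.95 between probe sets of the same gene. Their direction on that scale is therefore not settled. The sources used here do not say how much of each control transcript was added, and no control probe set read under 6.88, so the shift was not measured at the trichome signals of the 4 genes.

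**Figure D3:**
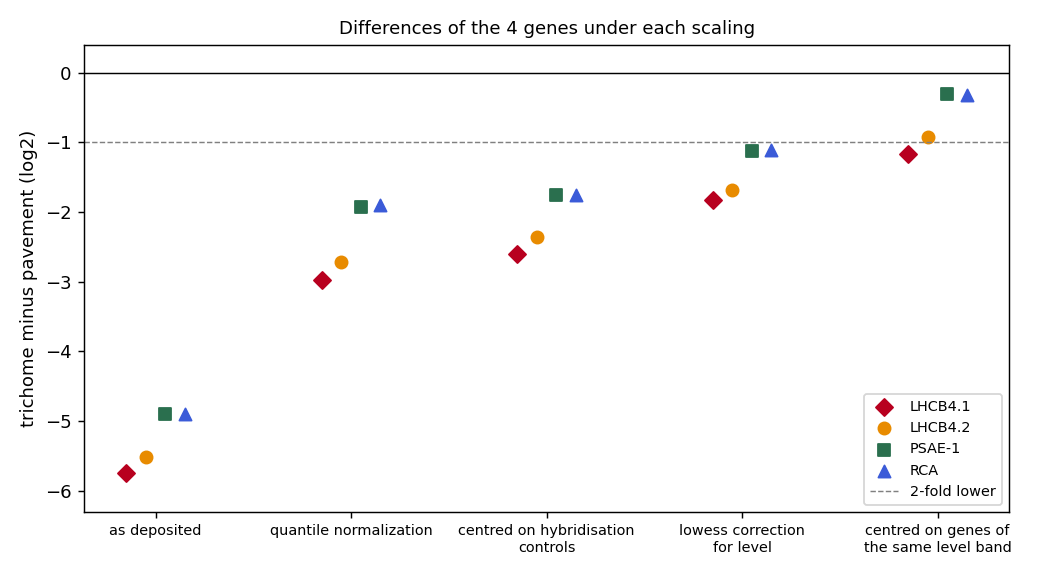
Trichome minus pavement difference (log2, vertical axis) of LHCB4.1, LHCB4.2, PSAE-1 and RCA as deposited and under 4 other scalings (horizontal axis), with 0 as a solid line and 2-fold lower as a dashed line. Every point is below 0, from -5.75 for LHCB4.1 as deposited to -0.31 for PSAE-1 when centred on genes of the same band of level.

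The other nuclear genes of photosynthesis did not share 1 difference. A list of 110 such genes in 11 groups by role held 18 with a named probe set, the 4 genes included. As deposited, all 18 read lower in trichome, 11 of them at least 2-fold and none at least 2-fold higher. Among the named genes that passed the filter, 8.31% were at least 2-fold lower and 1.19% at least 2-fold higher. The median difference was -3.04 over the 18 genes and -1.19 over the 14 that are not among the 4. Of the 18 genes, 11 were above the background ceiling on both arrays, 3 in pavement alone, and 4 on neither array. Of all 13355 named genes, 10731 were above it on neither array, so the counts and shares here are over unlike sets. The sum of the linear signals of the 18 genes, in which PSBW weighs most, was 281 in trichome and 8120 in pavement.

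In the antenna of photosystem II, the third CP29 gene LHCB4.3 was at background on both arrays, at 1.81 in trichome and 1.93 in pavement. No other antenna gene of either photosystem had a named probe set among the 21 listed. In photosystem I, PSAN, a subunit on the lumenal face, read 2.16, at background, in trichome and 5.77 in pavement, at least 9.11-fold lower in trichome. In photosystem II the small subunit genes parted. PSBW read 6.88 in trichome against 12.1 in pavement, which is a difference of -5.25, whereas PSBY read 3.50 and 3.92, a difference of -0.42. The difference of PSBW turned to 1.52 with the lowess correction alone. It was -0.94 when centred on its band of level and -2.10 relative to the hybridisation controls.

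Among genes of electron transport and ATP synthesis, the differences again spread widely. AT2G26500, entered under electron transport, read 3.71 in trichome against 9.72 in pavement, which is a difference of -6.00, and was the widest of the 18. ATPC1, the main gamma subunit gene of the plastid ATP synthase, read 3.90 and 5.49, a difference of -1.59. ATPC2, which encodes another gamma subunit, was at background on both arrays. With the lowess correction ATPC1 was higher in trichome, by 0.48 on the log2 scale, whereas AT2G26500 was still lower, at -1.93. Centred on their bands of level ATPC1 was at 0.001 and AT2G26500 at -1.42.

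As deposited, the Calvin cycle enzymes SBPASE and PRK read lower in trichome, by less than RCA. SBPASE, which dephosphorylates sedoheptulose bisphosphate, read 3.97 in trichome against 8.17 in pavement, which is a difference of -4.20. PRK, which makes the substrate of rubisco, read 3.17 and 6.38, a difference of -3.21. AT1G56190 read 2.24, at background, in trichome and 3.02 in pavement, at least 1.35-fold lower in trichome. Centred on its band of level SBPASE was higher in trichome by 0.38, and PRK was lower, at -1.61, further than RCA at -0.32. With the lowess correction both were lower, SBPASE at -0.75 and PRK at -1.05. Relative to the hybridisation controls SBPASE was at -1.05 and PRK at -0.06.

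The genes of chlorophyll synthesis, 4 of them measured, did not share 1 difference either. PORB, which reduces protochlorophyllide in the light, read 3.70 in trichome against 3.80 in pavement, which is a difference of -0.10. Its trichome signal was thus in the span of the 4 genes and its pavement signal was not. CHLM, the methyltransferase of magnesium protoporphyrin, read 2.54, at background, in trichome and 5.41 in pavement, at least 7.12-fold lower in trichome. CHLI2 and GSA1 were at background on both arrays. PSBY and PORB were higher in trichome under the lowess correction, by 0.53 and 0.89 and when centred on their band of level, by 0.13 and 0.45.

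Plastid-encoded genes of the same complexes gave a range of differences that takes in those of the 4 nuclear genes. Of 21 psa, psb and rbcL genes, 16 were at least 2-fold lower in trichome, against 8.31% of the named genes that passed the filter, the median difference being -1.77 and the range -6.53 to 0.13. Against the background ceiling as a bound, 13 of the 21 were so. Of the 21 genes, 3 were at background on both arrays, against 10731 of the 13355 named genes, so that share too is over an unlike set. The median was -0.73 with the lowess correction and turned to 1.37 relative to the hybridisation controls. The 4 with the highest mean level were psaB (-6.01), psbA (-4.62), psbM (-4.47) and psaJ (-5.66). With the lowess correction psaB, psbA and psbM turned higher in trichome, by 0.41, 1.78 and 1.53, and psaJ was lower, at -0.23. Centred on their band of level all 4 were lower, psaB at -1.70, psbA at -0.31, psbM at -0.16 and psaJ at -1.34. The level corrections thus differed in sign for psaB, psbA and psbM. With the median of the hybridisation controls subtracted, all 4 stayed lower, from -2.86 (psaB) to -1.325 (psbM).

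The genes nearest to each of the 4 in the plane of the trichome and pavement signals, a likeness over 2 arrays only, were in part the 4 themselves. PSAE-1 and RCA were each other's nearest gene, at a distance of 0.04 on the log2 scale. For LHCB4.1 the nearest was LHCB4.2 (0.21), followed by AT4G01150 (0.23) and AT1G01490 (0.25). For LHCB4.2 the nearest was AT4G01150, at 0.03, with LHCB4.1 at 0.21 and AT1G01490 at 0.34. The second nearest to PSAE-1 and to RCA was AT3G62650, at 0.36 and 0.34. The third was AT1G25275 for PSAE-1, at 0.41, and AT4G01150 for RCA, at 0.43.

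Markers of other cell types were few and close to background, and the nuclear photosynthesis genes were themselves the only listed marks of mesophyll. Of the guard cell list, 4 of 11 genes were measured, and none was above the ceiling in pavement. In trichome 3 of them were, MUTE (2.96), FAMA (2.87) and SPCH (2.62). The remaining gene, AT1G22690, was at background on both arrays, at 2.12 in trichome and 2.07 in pavement. The summed linear signal of the 4 measured guard cell genes was 25.5 in trichome and 16.3 in pavement. The vascular gene SWEET11, 1 of 5 listed, read 2.08 in trichome and 2.14 in pavement, and the epidermal receptor kinase gene ACR4, 1 of 8 listed, 2.08 and 1.68. Of the trichome list, 4 of 8 genes were measured, with a summed linear signal of 18.1 in trichome and 15.6 in pavement. SIM, which keeps trichome cells from dividing, was above the ceiling in trichome alone, at 2.79, and TRY, GIS and MYC1 were at background on both arrays. With 6 of the 10 measured markers at background on both arrays and the other 4 at most 1.29-fold above the ceiling, these markers gave little check of the labelled cell types. Whether sap from mesophyll or guard cells added to the signals of the 4 genes on either array was not tested, and with 1 array per cell type the sampling of a sap and its cell type cannot be told apart.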

How the data were processed

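Each array gave 1 log2 signal per probe set. The authors used RMA to make the deposited log2 values, according to the submitters' processing notes. Its version, its steps and the arrays normalized with these are not stated in the sources used here, and log2 was inferred from the values' range. Probe sets were named from the platform annotation: 13513 of 22810 name exactly 1 gene, 503 several, and 8794 are not listed. Names were updated through the RefSeq table of assembly TAIR10.1 (13436 matched), and 147 genes with several probe sets were averaged. Differences are trichome minus pavement. With 1 array a group there is no p-value. A reading at or under the ceiling of 2.58 was treated as a bound and its fold written "at least". Lowess used a span of 0.2 and 3 iterations (statsmodels 0.14.6), and bands of level were 1 wide, the top one from 8 to 13. Both level corrections were run on simulated data with a weaker trend over level and less scatter than in these data. That run therefore does not show how well they fit the brightest genes here. Genes named are the 4, all measured genes of the photosynthesis lists, the 4 brightest plastid genes of the same complexes, the 3 nearest genes to each of the first 4, and measured genes of the 4 marker lists. The genes and lists were chosen with earlier results of these data known. Arrays have no count depth, and their number limits the precision.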

Additional observations from a re-analysis of the deposited data

How the results depend on the processing

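LHCB4.1, LHCB4.2, PSAE-1 and RCA kept a lower value in trichome under the 4 scalings tried. With the level band the direction of LHCB4.2, PSAE-1 and RCA is not settled, given the SD of 0.95 between probe sets of the same gene. Raising background readings to the ceiling could not change the 4 differences, since all 4 genes read above it on both arrays. The 4 scalings moved them from -5.75, -5.52, -4.90 and -4.90 to -2.60, -2.37, -1.75 and -1.75 (centred on the hybridisation controls), -1.83, -1.69, -1.13 and -1.11 (lowess), -1.16, -0.93, -0.31 and -0.32 (level band) and -2.97, -2.72, -1.93 and -1.90 (quantile). Their median of -5.21 became -2.06, -1.41, -0.62 and -2.32 in the same order, and all 4 were at least 2-fold lower except with the level band, where 1 was. The median of the 18 photosynthesis genes, -3.04, became 0.11, -0.69, -0.45 and -1.36. The count of these at least 2-fold lower went from 11 to 7 with the controls and 5 with the level band, and the count at least 2-fold higher from 0 to 7 with the controls, 3 of them at background on both arrays, and 1 each with lowess and quantile. Over all named genes, the counts lower and higher went from 679 and 97 to 86 and 7880 (controls), 333 and 278 (lowess), 400 and 220 (level band), 346 and 374 (quantile), and 303 and 14 at 4-fold; with background readings at the ceiling 43 were higher. Centring on the controls subtracts their median of -3.15 from every difference, which moves the median of all named genes from 0.02 to 3.17. The level corrections remove any difference that genes of like level share, whatever its source. The cause of the difference in scale was not tested. No probe set naming several genes names a listed photosynthesis gene, so that alternative gave no value. No paired analysis was possible because each group has 1 array. A reading at background limits 7 of the 18 photosynthesis genes, and none of the 4. The trichome readings of the 4 were nonetheless low, from 2.13-fold (LHCB4.1) to 2.62-fold (RCA) above the ceiling, and their differences rest on them.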
